A study of Rattus norvegicus with 9 samples.

Results

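The genes that build and sulfate chondroitin sulfate were examined in rat knee cartilage by RNA sequencing. The set held 10 genes, taken by gene symbol from a table of 32043 genes: Xylt1 and B3gat3 of the linkage region, Csgalnact1 and Chsy1 of chain synthesis, Chst11 and Chst3 of chain sulfation, Papss1, Papss2 and Slc26a2 of sulfate supply, and Ugdh of sugar supply. They share a function, and they were chosen with earlier results of these data known. All 10 were among the 13898 genes with a mean of at least 0.5 FPKM over the 9 libraries. FPKM are fragments per kilobase of gene length, divided here by an effective size per library that was not its read total. Recovered from the values, that size was 30015950 in control library 1 (14914121 reads) and 3636667 in model library 1 (18815977 reads).

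The libraries came from cartilage of male Sprague–Dawley rats bought at 8 weeks of age, 3 each labelled control, model (KOA, knee osteoarthritis) and SYD. Control rats had the left knee joint capsule opened and sutured. Model rats had the modified Hulth operation, in which the medial collateral and anterior cruciate ligaments were cut and the medial meniscus was removed, followed by daily forced activity. SYD rats had the same operation and then received an extract of Shengyu decoction, a herbal preparation, by gavage for 4 weeks at the highest of 3 dose levels, and tissue was taken 8 weeks after surgery in all groups. The age, operation and times are from the study's methods, and the dose level of the sequenced group is from its results, not the labels. The labels call the third group syd but name its libraries and table columns CXTB, and the study also had a celecoxib group called CXB. That the third group is SYD rests on the labels and on the study's results, which name its high-dose SYD group as sequenced. Nothing in the sources states whether each library came from a different animal, so p-values may measure technical spread only.

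Chondroitin sulfate is a long sulfated sugar chain carried by aggrecan, the main proteoglycan of cartilage, and its negative charge holds water in the tissue. A xylose placed on the core protein starts the linkage region, a glucuronic acid completes it, and further enzymes add the alternating sugars and then the sulfate. Sulfate enters the chondrocyte through a transporter and is activated to PAPS (3'-phosphoadenosine 5'-phosphosulfate), the donor for every sulfotransferase. Inherited loss of several of these genes, SLC26A2 and PAPSS2 among them, causes skeletal dysplasia.

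The libraries differed in composition before any gene of the set was compared. They held 14914121 to 19510537 reads assigned to genes, and mitochondrial genes took 4.05% to 4.86% of them in control, 39.5% to 90.7% in model and 23.7% to 72.7% in SYD. Non-mitochondrial reads were thus 14306782 to 17373645 in control, 1744769 to 11106680 in model and 5153851 to 12745818 in SYD. The summed level of 12 chondrocyte markers was 10967 FPKM in control library 1, 443 in control library 2 and 5686 in control library 3, 137 to 791 FPKM in model and 101 to 2360 FPKM in SYD. All 12 were lower in control library 2 than in both other control libraries. Matn3 was at 0 in 2 model libraries and 1 SYD library, Col9a2 in 2 model libraries and Cnmd in 1 model library. The 6 B cell markers summed to 236 to 303 FPKM in control, 15.6 to 46.6 in model and 14.2 to 45.2 in SYD. In bulk tissue, fewer cells of a type and less RNA per cell cannot be told apart.

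The sequences just upstream of 4 genes are shown because these genes had the widest spread among the control libraries, a choice made after their values were seen. They are the bases before the RefSeq gene start in GRCr8, 5′ to 3′ on the gene's strand, with matches to searched motifs in capitals. The windows are chr1:181077972-181078221 (plus strand) for Xylt1, chr7:22630578-22630691 (minus) for Chst11, chr1:239867463-239867596 (plus) for Papss2 and chr18:56937033-56937262 (minus) for Slc26a2.
Xylt1: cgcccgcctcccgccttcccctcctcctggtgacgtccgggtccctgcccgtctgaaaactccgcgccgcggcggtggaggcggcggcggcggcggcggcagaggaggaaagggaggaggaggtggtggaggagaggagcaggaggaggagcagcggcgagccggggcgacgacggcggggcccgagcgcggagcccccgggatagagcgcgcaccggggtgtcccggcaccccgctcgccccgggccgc
Chst11: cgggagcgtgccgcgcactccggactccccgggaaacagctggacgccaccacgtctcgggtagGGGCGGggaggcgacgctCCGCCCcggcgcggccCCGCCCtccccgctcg
Papss2: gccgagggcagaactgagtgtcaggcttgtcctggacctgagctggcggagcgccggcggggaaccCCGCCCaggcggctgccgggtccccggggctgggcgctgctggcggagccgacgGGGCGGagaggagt
Slc26a2: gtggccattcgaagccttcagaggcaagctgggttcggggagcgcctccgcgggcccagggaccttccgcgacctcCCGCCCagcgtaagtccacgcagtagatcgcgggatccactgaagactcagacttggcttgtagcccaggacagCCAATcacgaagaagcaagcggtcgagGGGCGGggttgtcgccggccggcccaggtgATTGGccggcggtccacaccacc
The motifs searched on both strands were ACAAT (the SOX core), GGGCGG (the GC box), CCAAT (the CCAAT box) and TATAA (the TATA box). The SOX core and the CCAAT box end in the same letters, but 1 position can match only 1 of them. The Chst11 window held 3 GC boxes, the Papss2 window 2, the Slc26a2 window 2 with 2 CCAAT boxes, and the Xylt1 window none of the motifs. Windows of 300 bases were also searched, from 250 before to 50 after the start given with each promoter. Of the Chst11, Papss2 and Slc26a2 windows 114, 134 and 230 bases lay before the RefSeq gene start, and only these are shown. In the 300 bases 7 of the 9 genes with a RefSeq entry held a GC box, against 33.1% of 33469 promoters. The SOX core was in 0 of the 9 (33.7% of all promoters), the CCAAT box in 2 (37.5%) and the TATA box in 1 (26.2%). Csgalnact1 had no entry in the table used. A match is a description of the letters only.

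**Figure D1:**
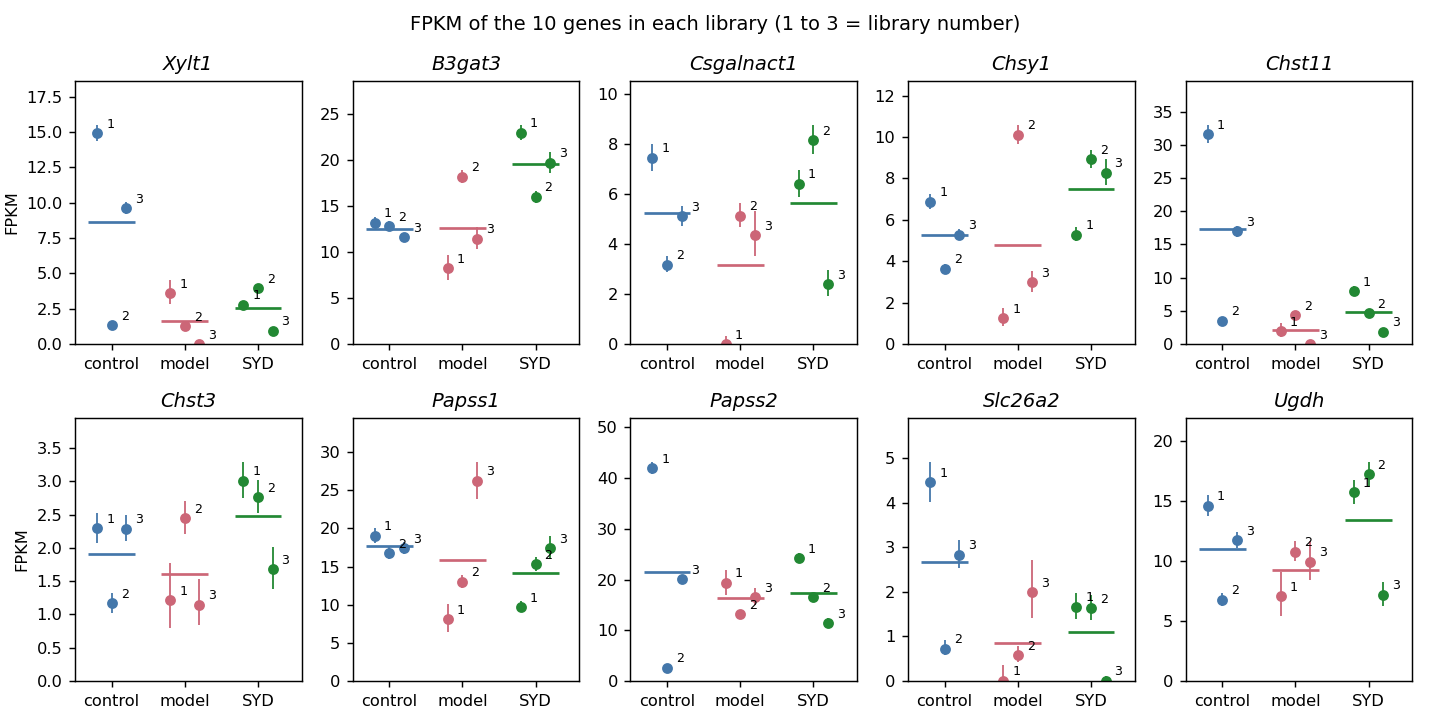
FPKM of each of the 10 genes in the 9 libraries, with control in blue, model in red and SYD in green. Points are libraries 1 to 3 with their 95% counting interval (which covers counting error only) and horizontal lines are group means. Xylt1, Chst11, Papss2 and Slc26a2 spread widely among the control libraries, with control library 2 lowest, while Papss1 and B3gat3 lie close together there.

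Xylt1, the xylosyltransferase that starts the chain on the core protein, was measured from chromosome 1 (ENSRNOG00000056658, 171643925 to 171926783, plus strand, in the deposited coordinates, whose build is not given in the sources used here). Its level was 14.9, 1.36 and 9.62 FPKM in control libraries 1 to 3, 3.62, 1.27 and 0 FPKM in model, and 2.79, 3.97 and 0.969 FPKM in SYD. Control libraries 1 and 3 were above every other library, and control library 2 lay inside the model and SYD ranges. The 0 in model library 3 was 0 reads, and 3 reads there would have been 0.0752 FPKM. The mean was 8.64 ± 6.84 FPKM (SD, n = 3) in control and 1.63 ± 1.84 FPKM in model, a log2 fold change of -1.75 (SE 0.90) on the log2(FPKM + 1) scale, which did not pass (limma, Benjamini-Hochberg adjusted p = 0.358).

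B3gat3, the glucuronyltransferase that completes the linkage region, had the steadiest control levels of the set beside Papss1. It was at 13.2, 12.8 and 11.6 FPKM in control, 8.26, 18.2 and 11.5 FPKM in model, and 23.0, 15.99 and 19.7 FPKM in SYD. Every SYD library was above every control library, while the model libraries lay on both sides of control. The log2 fold change of SYD against control was 0.59 (SE 0.16, 95% interval 0.19 to 0.99, unadjusted p = 0.0115, limma), with a Benjamini-Hochberg adjusted p of 0.0592. The deposited B3gat3 entry (ENSRNOG00000019873, chromosome 1, 205817378 to 205837807, plus strand) spans 20430 bases, overlaps the Rom1 entry and names the Eml3 protein. In RefSeq GRCr8 B3gat3 spans 6581 bases and is followed by Rom1 and Eml3, so which of these genes gave the reads cannot be told apart.

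Csgalnact1, which adds the first N-acetylgalactosamine of the chain, was read from chromosome 16 (ENSRNOG00000013024, 21235784 to 21330319, plus strand). It was at 7.44, 3.18 and 5.10 FPKM in control, 0, 5.13 and 4.34 FPKM in model, and 6.41, 8.15 and 2.40 FPKM in SYD. The groups overlapped, and model library 1 had 0 reads, where 3 reads would have been 0.253 FPKM. Chsy1, a synthase that extends the chain, was read from another part of chromosome 1 (ENSRNOG00000012698, 119686350 to 119750601, plus strand). It was at 6.89, 3.65 and 5.29 FPKM in control, 1.25, 10.1 and 2.99 FPKM in model, and 5.29, 8.93 and 8.28 FPKM in SYD. Model library 2, with the most non-mitochondrial reads of its group, was the highest of all 9 libraries for Chsy1, and model library 1, with the fewest, was the lowest.

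Chst11, the sulfotransferase that places sulfate on carbon 4 of N-acetylgalactosamine, was read from chromosome 7 (ENSRNOG00000008885, 20528100 to 20743111, minus strand, overlapping the LOC120093923 entry). It was at 31.6, 3.51 and 17.0 FPKM in control, 1.98, 4.34 and 0 FPKM in model, and 8.01, 4.62 and 1.87 FPKM in SYD. Control libraries 1 and 3 were far above all others, and control library 2 was below model library 2. Model library 1 rested on 16 reads, and model library 3 had 0 reads, where 3 reads would have been 0.203 FPKM. Chst3, which places sulfate on carbon 6 of the same sugar, was read from chromosome 20 (ENSRNOG00000000572, 28114404 to 28121807, minus strand). It was at 2.29, 1.17 and 2.29 FPKM in control, 1.21, 2.45 and 1.15 FPKM in model, and 3.01, 2.76 and 1.68 FPKM in SYD. The 3 groups overlapped for Chst3, and its whole range over the 9 libraries was narrower than the range of Chst11 within control.

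Papss1 and Papss2 are the paired synthases that make PAPS, and Papss2 is the form known for its role in cartilage. Papss1 (ENSRNOG00000011311, chromosome 2, 220040312 to 220114395, plus strand) was at 19.1, 16.8 and 17.4 FPKM in control, 8.12, 13.01 and 26.3 FPKM in model, and 9.70, 15.3 and 17.4 FPKM in SYD. Papss2 (ENSRNOG00000011068, chromosome 1, 230454426 to 230539331, plus strand) was at 42.0, 2.58 and 20.02 FPKM in control, 19.4, 13.1 and 16.6 FPKM in model, and 24.2, 16.5 and 11.4 FPKM in SYD. Control library 2 was the lowest of all 9 libraries for Papss2, and the model and SYD libraries lay between it and control library 1. Slc26a2, the sulfate transporter (ENSRNOG00000018082, chromosome 18, 54652951 to 54666626, minus strand), was at 4.46, 0.727 and 2.84 FPKM in control, 0, 0.579 and 1.99 FPKM in model, and 1.66, 1.63 and 0 FPKM in SYD. Control libraries 1 and 3 were above every model and SYD library for Slc26a2. At both zeros no read was counted, and 3 reads would have been 0.287 FPKM in model library 1 and 0.0906 FPKM in SYD library 3.

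Ugdh makes UDP-glucuronic acid, the sugar donor for the chain, and was read from chromosome 14 (ENSRNOG00000002643, 42848854 to 42872354, plus strand). It was at 14.6, 6.76 and 11.7 FPKM in control, 7.04, 10.8 and 9.95 FPKM in model, and 15.7, 17.3 and 7.19 FPKM in SYD. The 3 groups overlapped.

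By mean level per length in control, the order was Papss2 (21.5 ± 19.8 FPKM, SD, n = 3), Papss1 (17.7 ± 1.18), Chst11 (17.4 ± 14.1), B3gat3 (12.5 ± 0.837), Ugdh (11.04 ± 3.98), Xylt1 (8.64 ± 6.84), Chsy1 (5.27 ± 1.62), Csgalnact1 (5.24 ± 2.13), Slc26a2 (2.67 ± 1.87) and Chst3 (1.92 ± 0.650). Neighbours in that order differed by less than the larger of their SDs, apart from Csgalnact1 over Slc26a2, whose libraries overlapped. The order was not stable between libraries. Papss2 was the highest of the 10 in 4 of the 9 libraries, Papss1 in 2, B3gat3 in 2 and Ugdh in 1.

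Control library 2 was low for some genes of the set and not for others. Between control libraries 1 and 2 the FPKM differed 16.3-fold for Papss2, 10.96-fold for Xylt1, 9.02-fold for Chst11 and 6.13-fold for Slc26a2. The fold was 1.89 to 2.34 for Csgalnact1, Chsy1, Chst3 and Ugdh, 1.14 for Papss1 and 1.03 for B3gat3. Over 13564 genes the median of this fold was 0.968, and 4.47% of the genes were over 4. The chondrocyte markers ran from 4.51-fold (Cytl1) to 41.5-fold (Col9a1), with Acan at 29.3-fold and Sox9 at 17.9-fold, and the second lowest was Col11a1 at 13.2-fold. Papss2 was thus among the markers, while Xylt1, Chst11 and Slc26a2 were below 11 of the 12. The 6 synovial fibroblast markers ran from 0.789-fold (Dpp4) to 18.7-fold (Col14a1), with a median of 2.57. The summed erythroid markers were 3558 FPKM in control library 2 against 1400 and 1828 FPKM in the others, and the neutrophil markers 5604 against 2923 and 3731 FPKM. In 9 of the 10 genes control library 2 was the lowest control library, with B3gat3 the exception. The part of these cell types in the levels was not tested.

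**Figure D2:**
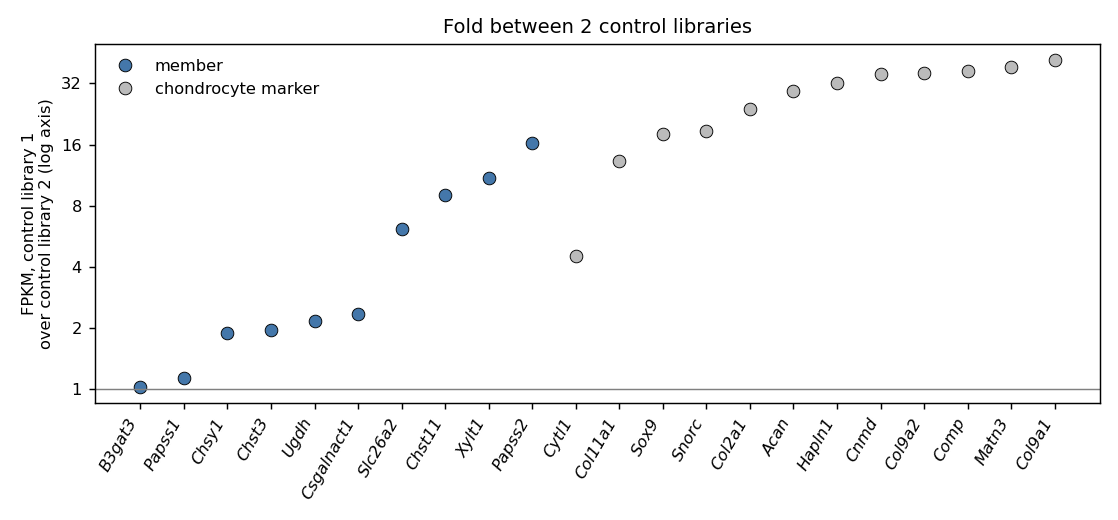
FPKM in control library 1 divided by FPKM in control library 2, on a log axis, for the 10 genes (blue) and the 12 chondrocyte markers (grey), each sorted by fold. The 10 genes run from 1.03 for B3gat3 to 16.3 for Papss2, and of these Papss2 alone lies above the second lowest marker, Col11a1 at 13.2.

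The first comparison asked how the operated joint differed from the control joint. Chst11 was the only gene of the set that was called lower by the study's criteria (a log2 fold change beyond 1 in either direction with an unadjusted p under 0.05), from 17.4 ± 14.1 FPKM in control to 2.11 ± 2.17 FPKM in model (SD, n = 3). The difference was -2.46 on the log2 scale (SE 0.92, 95% interval -4.70 to -0.22, unadjusted p = 0.0362 by limma), and it did not pass adjustment (Benjamini-Hochberg adjusted p = 0.222). Thus 1 of 10 genes was called lower and 0 higher, where 11.2% of all tested genes were called lower and 3.55% higher. An adjusted p under 0.05 was reached by 2.59% of all tested genes and by 0 of the 10 (limma, 1 of the 10 at an unadjusted p under 0.05, and 0 called when limma voom was run on recovered reads). The libraries of model and control did not overlap for 0 of the 10, against 20% of all tested genes lower without overlap and 8.65% higher. The counts for the set were thus at or below those over all genes.

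The call for Chst11 rested on single libraries. It was lost when control library 1, control library 3, model library 1 or model library 3 was left out (log2 fold changes of -1.84, -2.27, -2.58 and -1.79, unadjusted p from 0.0757 to 0.125, limma), and kept without model library 2. It was also lost with the replicate number as a block (unadjusted p = 0.0510). Without control library 2, the library low in chondrocyte markers, both Chst11 (-3.27) and Xylt1 (-2.57) were called lower, where 9.42% of all tested genes were called. The 12 chondrocyte markers were lower in model in the mean, with a median log2 fold change of -3.42, 7 of the 12 called lower and 4 without overlap, and the B cell markers had a median of -3.13 with 5 of 6 called lower. Their part in the result for Chst11 was not tested.

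For the other 9 genes no difference between model and control was called, and each 95% interval included 0. The log2 fold changes were -1.75 for Xylt1, -0.98 for Slc26a2, -0.91 for Csgalnact1, -0.40 for Chsy1, -0.30 for Papss1, -0.19 for Ugdh, -0.17 for Chst3, -0.05 for B3gat3 and 0.21 for Papss2. On the log2(FPKM + 1) scale the sign was negative for 9 of the 10, and their median of -0.35 compares with -0.23 over all tested genes. By mean FPKM the signs of Papss2 and B3gat3 turned. Papss2 was at 16.4 in model against 21.5 in control, and B3gat3 at 12.6 against 12.5. The median rested on single libraries and on the method, at -0.05 with 4 positive signs without model library 1, -0.71 without control library 2 and -0.12 with 4 positive signs with voom. The intervals were wide. For Papss2 the 95% interval ran from -1.93 to 2.36, so a change of several fold in either direction would not have been detected, while for Ugdh it ran from -1.04 to 0.66 and for B3gat3 from -0.84 to 0.73. On the TPM scale, where the mitochondrial transcripts count toward the total, the median over all genes was -2.60 and 9 of the 10 were called lower (all but Papss2), where 75.2% of all tested genes were called in either direction. The median of the 10 on that scale was -3.00.

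**Figure D3:**
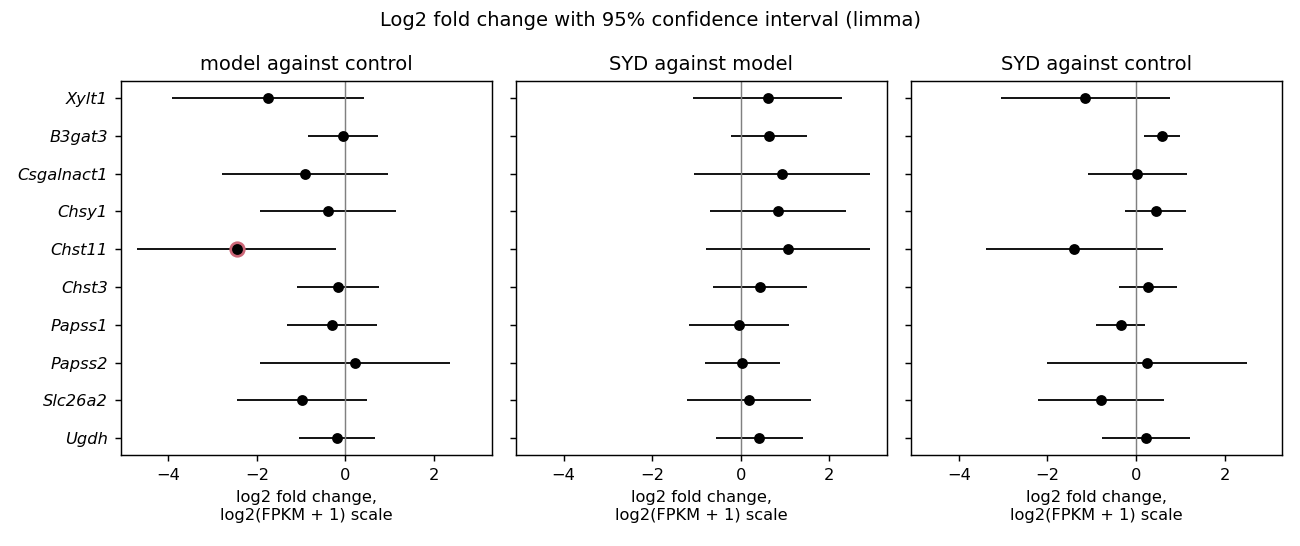
Log2 fold change (points) with its 95% confidence interval (lines) for the 10 genes in the comparisons of model with control, SYD with model and SYD with control, on the log2(FPKM + 1) scale, 3 libraries a group. The red ring marks Chst11 in model against control at -2.46, the only call, and beside it the interval of B3gat3 in SYD against control, 0.19 to 0.99, is the other that does not include 0.

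The second comparison asked how SYD differed from model, and it shares the model libraries with the first. None of the 10 was called, while 3.62% of all tested genes were called higher and 0.532% lower, and 0% of all tested genes passed an adjusted p under 0.05 (limma, 731 genes at an unadjusted p under 0.05). The libraries did not overlap for 0 of the 10, against 7.89% of all genes higher and 3.17% lower without overlap. The largest log2 fold changes were 1.07 for Chst11 (SE 0.77, Benjamini-Hochberg adjusted p = 0.723, limma), 0.94 for Csgalnact1, 0.85 for Chsy1, 0.64 for B3gat3 and 0.61 for Xylt1. Chst3 was at 0.43, Ugdh at 0.42, Slc26a2 at 0.19, Papss2 at 0.04 and Papss1 at -0.04. The sign was positive for 9 of the 10, with a median of 0.52 against 0.22 over all tested genes. Without model library 1 the median was 0.29 with 8 positive signs, without SYD library 2 it was 0.34, and with voom it was 0.33. For Papss2 the 95% interval was -0.81 to 0.88. Leaving out model library 2 brought 1 call, Chsy1 higher in SYD, where 18% of all tested genes were called.

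Markers of several cell types had positive signs in the same comparison, as did 8609 of 13898 tested genes. Signs were positive for 7 of 7 osteoclast markers (median log2 fold change 1.52), with 3 called higher, where 3.62% of all tested genes were. They were also positive for 11 of 12 chondrocyte markers (1.49, 0 called), 8 of 8 osteoblast markers (1.08, 0 called) and 6 of 6 endothelial markers (0.94, 0 called, limma). The other medians were 1.11 (skeletal muscle), 0.79 (B cell), 0.53 (macrophage), 0.49 (adipocyte), 0.21 (synovial fibroblast), 0.21 (neutrophil) and -1.25 (erythroid, 0 of 5 positive). The osteoclast markers summed to 450 to 1790 FPKM in model and 2008 to 2688 FPKM in SYD, and the osteoblast markers to 1262 to 7481 FPKM and 7808 to 10520 FPKM. The chondrocyte and endothelial sums overlapped between the groups, with the endothelial markers at 19.8 to 200 FPKM in model. In model library 1 3 osteoclast and 3 endothelial markers were at 0, and in model library 3 2 osteoclast markers were. Their part in the levels of the 10 genes was not tested.

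The third comparison set SYD against control and shares its libraries with both others. None of the 10 was called by the study's criteria, where 7.25% of all tested genes were called higher and 9.22% lower. An adjusted p under 0.05 was reached by 17.3% of all tested genes and by 0 of the 10 (limma, 1 of the 10 at an unadjusted p under 0.05). B3gat3 was the 1 gene whose libraries did not overlap, with SYD higher, against 20.3% of all genes higher without overlap and 22.2% lower. Chst11 (-1.39, SE 0.81) and Xylt1 (-1.14, SE 0.78) had the lowest log2 fold changes, and both were called lower without control library 2 (-2.20 and -1.96), where 12.9% of all tested genes were called. Slc26a2 was at -0.79, Papss1 at -0.34, Csgalnact1 at 0.03, Ugdh at 0.23, Papss2 at 0.25, Chst3 at 0.26 and Chsy1 at 0.44. On the TPM scale 3 were called lower (Chst11, Papss1 and Xylt1) against 43.4% of all tested genes called, the median over all genes was -1.31 and B3gat3 turned to -0.89.

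Markers of other cells of the joint also differed between SYD and control, where B3gat3 did not overlap. The 7 osteoclast markers summed to 616 to 1063 FPKM in control and 2008 to 2688 FPKM in SYD, with 5 of 7 called higher. The 8 osteoblast markers summed to 3013 to 5992 FPKM and 7808 to 10520 FPKM, with 1 of 8 called higher. The 6 endothelial markers summed to 29.4 to 39.0 FPKM and 79.8 to 111 FPKM, with 4 of 6 called higher. None of the markers of these 3 lists was at 0 in a control or SYD library. Markers of blood cells moved the other way, with 4 of 6 tested neutrophil markers, 4 of 6 B cell markers and 3 of 5 erythroid markers called lower and median log2 fold changes of -2.91, -2.51 and -2.82. Their part in the B3gat3 level was not tested.

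The ratio of Chst11 to Chst3 was compared within each library, which depends on the scaling between libraries only through the pseudocount. It is not the whole balance between carbons 4 and 6, since it leaves out the other 4-O-sulfotransferases Chst12 and Chst13. Mean levels of Chst11, Chst12 and Chst13 were 17.4, 13.9 and 4.71 FPKM in control and 4.84, 5.72 and 7.20 FPKM in SYD. The log2 ratio of (FPKM + 1) was 3.31, 1.06 and 2.45 in control, 0.43, 0.63 and -1.10 in model, and 1.17, 0.58 and 0.10 in SYD. Every model library was below every control library, while SYD overlapped both groups on this scale. The difference of model from control was -2.29 (two-sided exact permutation p = 0.1, the smallest that 3 against 3 can give; -2.51 on the TPM scale), of SYD from model 0.63 (exact p = 0.5) and of SYD from control -1.66 (exact p = 0.2). Without model library 3, where Chst11 had 0 reads, the difference of SYD from model was 0.09. Between SYD and control the overlap rested on the pseudocount of 1: with a pseudocount of 0.1 and on the TPM scale the difference was -1.94 each time, with no overlap (exact permutation p = 0.1). The plain ratio was 13.8, 3.01 and 7.41 in control, 1.63, 1.77 and 0 in model, and 2.66, 1.67 and 1.12 in SYD, so Chst11 exceeded Chst3 in 8 of the 9 libraries, and every SYD library was below every control library.

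The ratio of Papss2 to Papss1 showed no such separation. Its log2 value was 1.10, -2.31 and 0.19 in control, 1.16, 0.01 and -0.64 in model, and 1.24, 0.10 and -0.58 in SYD. The widest spread lay within control, where library 2 had 0.154 Papss2 per Papss1 and library 1 had 2.20. The differences were 0.52 for model against control, 0.07 for SYD against model and 0.59 for SYD against control (two-sided exact permutation p = 0.8, 0.7 and 0.7). Without control library 2 the difference turned to -0.47 for model and -0.39 for SYD against control.

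**Figure D4:**
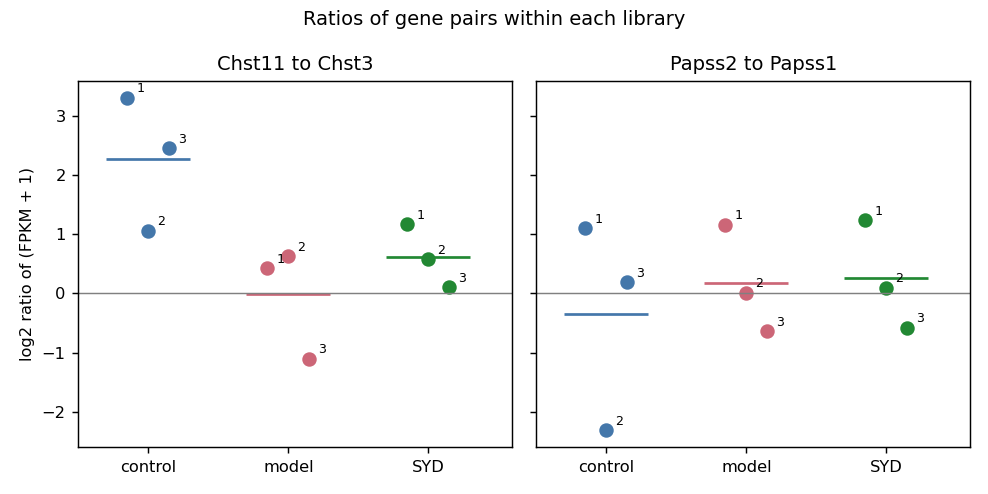
Log2 ratio of (FPKM + 1) within each library for Chst11 to Chst3 (left) and Papss2 to Papss1 (right), with points for libraries 1 to 3 and lines for group means. On the left the 3 model libraries, at -1.10 to 0.63, are below the 3 control libraries, at 1.06 to 3.31. On the right the control libraries alone span -2.31 to 1.10.

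The levels were also set against Acan, the aggrecan core protein that carries the chains, a comparison chosen after the values were seen. Acan was at 305, 10.4 and 143 FPKM in control, 34.8, 10.7 and 0.629 FPKM in model, and 77.8, 43.2 and 3.12 FPKM in SYD. The ratio of Papss2 to Acan was 0.138, 0.247 and 0.140 in control, 0.556, 1.23 and 26.3 in model, and 0.311, 0.381 and 3.65 in SYD. Every model and every SYD library was above every control library. The mean log2 ratio of (FPKM + 1) differed by 3.39 between model and control and by 1.96 between SYD and control (two-sided exact permutation p = 0.1 for each), and by -1.43 between SYD and model (exact p = 0.5). Single libraries carried much of this: without model library 3 the differences were 2.16 for model against control and -0.19 for SYD against model, and without SYD library 3 they were 0.93 for SYD against control and -2.45 for SYD against model. With all libraries, Papss2 was the 1 of the 10 genes whose plain ratio to Acan separated in this way, where 0.971% of all tested genes apart from Acan did so in both model and SYD. That it was alone rested on control library 2. Without that library 5 of the 10 did so in both groups (Papss1, Papss2, Chst3, Ugdh and B3gat3), against 42.3% of all tested genes. Control library 2 and model library 2 had nearly the same Acan level, at 10.4 and 10.7 FPKM, but were not alike in chondrocyte markers. The 12 markers summed to 443 and 137 FPKM, and Col2a1 was at 348 and 39.0 FPKM. In these libraries, 1 against 1, Papss2 was 2.58 FPKM in control and 13.1 FPKM in model, while Papss1, Slc26a2 and Xylt1 were lower in the model library and the other genes of the set higher. For Chst11 and Xylt1 the log2 ratio to Acan differed by 0.72 and 1.42 between model and control (exact permutation p = 0.6 and 0.3). Model library 3 had 0 reads of both genes, and the values moved with the pseudocount, to -0.11 and 0.66 at 0.1, and with that library left out, to 0.16 and 0.77, so no direction was read from them.

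**Figure D5:**
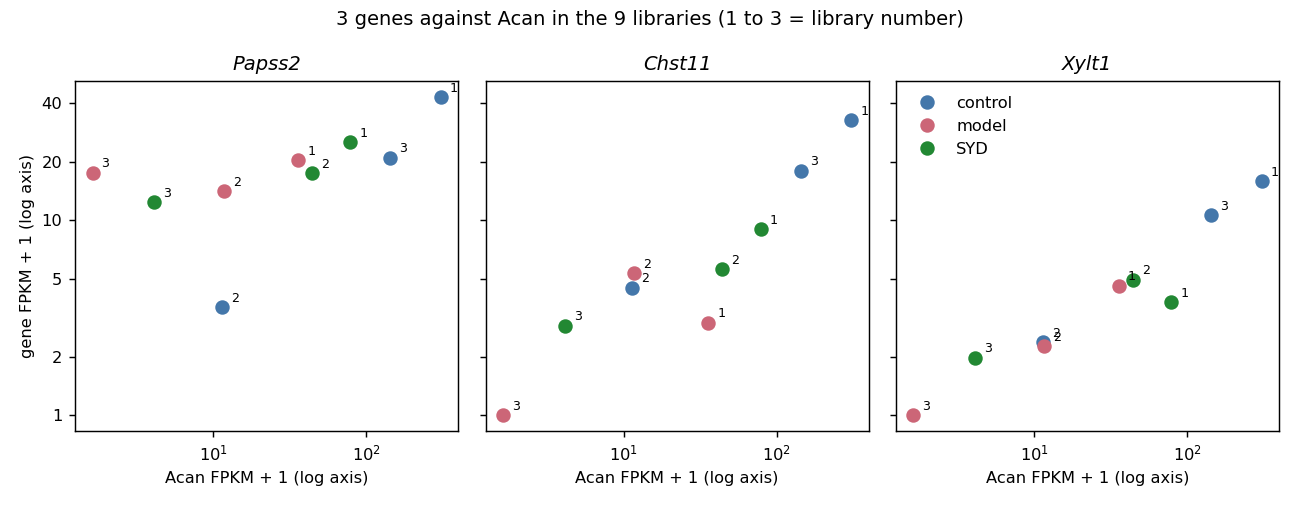
FPKM + 1 of Papss2, Chst11 and Xylt1 against FPKM + 1 of Acan in the 9 libraries, on log axes, with control in blue, model in red and SYD in green. Papss2 stays between 11.4 and 24.2 FPKM in the 6 model and SYD libraries while Acan ranges from 0.629 to 77.8 FPKM. Chst11 and Xylt1 are highest in the 2 control libraries with the most Acan and at 0 in model library 3, which has the least.

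Likeness of pattern within the set was described by Pearson's r of log2(FPKM + 1) over the 9 libraries, which share depth and tissue composition. Xylt1 and Chst11 were most like each other (r = 0.909), followed by Chst3 and Ugdh (0.850). Csgalnact1 was most like Ugdh (0.786), and Chsy1 and B3gat3 most like each other (0.758). Slc26a2 was most like Csgalnact1 (0.744), Papss2 most like Ugdh (0.633), and Papss1 most like Csgalnact1 (0.469), the lowest of these values.

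The wider pathway was followed in 8 lists that include the 10 genes, with 71 genes tested. In model against control 6 of the 71 were called, all lower: Chst11, Chst12, Chst14, Ust, Slc35d1 and Col9a2. Over all tested genes 11.2% were called lower, so the lists gave no more calls than that share. On the TPM scale 56 were called lower and 0 higher, where 75.2% of all tested genes were called, and with quantile normalization 5 lower and 1 higher (Vcan), where 14.7% of all tested genes were called. Chst12, another 4-O-sulfotransferase, fell with the clearest separation, from 15.5, 14.5 and 11.7 FPKM in control to 0, 4.71 and 0.812 FPKM in model, and was at 8.77, 6.13 and 2.25 FPKM in SYD. Its log2 fold change in model was -2.76 (SE 0.66, unadjusted p = 0.00523, Benjamini-Hochberg adjusted p = 0.0894, limma), and it was called in all 16 alternatives run. Its fold between control libraries 1 and 2 was 1.07, against 9.02 for Chst11. Chst14, which sulfates the dermatan form of the chain, was at 6.03, 3.02 and 3.82 FPKM in control and 0, 2.86 and 0 FPKM in model, without overlap (log2 fold change -1.71, adjusted p = 0.215, limma). Ust, the uronyl sulfotransferase, was called at -1.09 although model library 2 (1.45 FPKM) was above control library 2 (1.37 FPKM). Of the 16 alternatives, Ust was called in 5, Chst14 and Slc35d1 in 10 each and Col9a2 in 13, and with 1 library left out Ust, Chst14 and Slc35d1 were called in 1 of 6 fits each.

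In the list for chain sulfation and epimerization, all 10 tested genes had a negative sign in model against control, 4 were called lower (11.2% of all tested genes) and 3 were lower without overlap (20% of all tested genes). The median was -1.01 against -0.23 over all tested genes. In model library 1 8 of these 10 genes were at 0, and in model library 3 4 were, the libraries with the fewest non-mitochondrial reads. The part of read depth in this count was not tested. The 4 calls became 1 (Chst12) without control library 1, control library 3, model library 1 or model library 3 and with the replicate block (9.55% to 19.5% of all tested genes), 2 without control library 2 (9.42%) and 6 without model library 2 (24.1%). Without model library 3 the number of called genes over the 8 lists was 2 (Chst12 and Gnpnat1), where 14.3% of all tested genes were called, and without model library 2 it was 15, where 24.1% were. Without control library 1 or control library 3 it was 3, where 10.6% and 9.55% were.

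Supply and carrier genes outside the set gave few calls. Slc35d1, a transporter of UDP-sugars into the Golgi and endoplasmic reticulum lumen, was at 6.60, 4.29 and 5.74 FPKM in control, 3.35, 1.03 and 0 FPKM in model, and 1.48, 1.90 and 1.39 FPKM in SYD. It was called lower in model (-1.65, adjusted p = 0.206, limma) and in SYD (-1.33, SE 0.20, Benjamini-Hochberg adjusted p = 0.0151, limma) against control, and the call in SYD held in all 16 alternatives. Col9a2, a collagen that can carry a chondroitin sulfate chain, was at 394, 10.9 and 153 FPKM in control and 11.03, 0 and 0 FPKM in model (-5.30, adjusted p = 0.140, limma), and is also 1 of the 12 chondrocyte markers. In the linkage, chain synthesis and sulfate supply lists 0 genes were called in model against control, where 14.7% of all tested genes were. At an unadjusted p under 0.05 there were 0 in these lists (limma), against 19.2% of all tested genes. Bpnt2, a Golgi phosphatase that clears the by-product of sulfation, was at 14.1, 6.18 and 10.5 FPKM in control, 3.39, 8.76 and 5.72 FPKM in model, and 11.1, 11.04 and 5.55 FPKM in SYD, and was not called. Slc35b2, the PAPS transporter, was listed at 0 to 0.0681 FPKM and was not tested.

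In SYD against model 6 of the 71 were called, with Chsy3, Chst13, Chst14, Extl2 and Hexa higher and B3galt6 lower, each at an adjusted p of 0.723 (limma), against 3.62% of all tested genes called higher and 0.532% lower. On the TPM scale 2 were called higher and 0 lower, where 3.81% of all tested genes were called. Chst14 was at 3.72, 7.42 and 3.66 FPKM in SYD, above every model library (log2 fold change 1.86). Chsy3, a chain synthase, was at 2.37, 2.15 and 2.54 FPKM in SYD against 0, 1.67 and 0 FPKM in model (1.27). Chst13, another 4-O-sulfotransferase, was at 7.98, 4.62 and 8.99 FPKM against 0, 5.56 and 0 FPKM (2.09), with overlap. All 10 genes for chain sulfation and epimerization had a positive sign, with a median of 1.01 against 0.22 over all genes. The osteoclast, chondrocyte, osteoblast and endothelial markers had positive medians in the same comparison, at 1.52, 1.49, 1.08 and 0.94, and the erythroid markers a negative one, at -1.25. The part of these markers in this was not tested. Over the 8 lists 0 genes were called without model library 3, SYD library 1 or SYD library 2 (2.73%, 2.27% and 2.68% of all tested genes), and 1 without model library 1 (Hexa, where 3.04% of all tested genes were called). Without SYD library 3, where 3.73% of all tested genes were called, the calls were Extl2 with Col9a2 and Hs3st3b1, which were not called before. Without model library 2 there were 22, where 18% of all tested genes were called.

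In SYD against control 7 of the 71 were called, 4 higher (Slc35d2, Dcn, Idua and Sulf1) and 3 lower (B3galt6, Chst12 and Slc35d1). Over all tested genes 7.25% were called higher and 9.22% lower, so the lists gave no more calls than those shares. Without SYD library 3 there were 6 calls, where 18.7% of all tested genes were called. Slc35d2, B3galt6 and Chst12 were not among the 6, and Sulf2 and Vcan were added. On the TPM scale it was 0 higher and 12 lower, where 43.4% of all tested genes were called. Dcn, the small proteoglycan decorin, rose from 71.9, 37.1 and 74.5 FPKM in control to 284, 240 and 178 FPKM in SYD (log2 fold change 1.96, SE 0.33, Benjamini-Hochberg adjusted p = 0.0183, limma). Of the chondroitin sulfate breakdown list 11 of 12 tested genes had a positive sign and 6 did not overlap, with SYD higher, against 20.3% of all tested genes. Idua, a lysosomal iduronidase, was at 7.59, 7.79 and 9.15 FPKM in control and 28.6, 14.7 and 17.9 FPKM in SYD (1.17, adjusted p = 0.0332, limma), a call lost without SYD library 1 (0.91) and turned to -0.26 on the TPM scale. Sulf1, an extracellular sulfatase of heparan sulfate, was at 5.07, 2.59 and 4.10 FPKM in control and 9.12, 16.7 and 10.5 FPKM in SYD (1.40, adjusted p = 0.0303, limma), and was not called on the TPM scale or in the fit of all 9 libraries. These 3 genes moved together with the osteoclast, osteoblast and endothelial markers given beside B3gat3, whose part was not tested.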

How the data were processed

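RNA was sequenced from cartilage, 3 libraries a group. The authors deposited FPKM per gene in 1 table, whose columns match the library names in the labels (CXTB for the SYD group), with 0 unassigned value columns. The submitters' processing notes name HISAT2 2.0.5 and hg38, a human build, for these rat libraries, and an extraction text that speaks of retinas. The counter, rat build and annotation are not given in the sources used here. FPKM times gene length, divided by a step fitted to each library, gave whole numbers for 100% of values (tolerance 0.1), taken as reads. The step sets the effective library size, 3636667 to 39425819 over the libraries, which was not the read total. From these reads, depth, 95% Poisson intervals and 3-read limits were computed. They cover counting error only, and no molecular identifiers are known.

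Log2(FPKM + 1) was tested with limma 3.58.1 (R 4.3.3, lmFit and eBayes with trend, two-sided, 2 groups per fit) over 13898 genes with a mean of at least 0.5 FPKM, with Benjamini-Hochberg adjustment over all of them. The code was tested on simulated data. A gene was called by the study's criteria, a log2 fold change beyond 1 in either direction with an unadjusted p under 0.05. Ratios used exact permutation tests (scipy 1.17.1). Alternatives were other pseudocounts, filters, scalings, a fit of all 9 libraries, robust eBayes, a replicate block, limma voom on recovered reads, and leaving out libraries. The 10 genes and all lists were chosen with earlier results of these data known. All 10 genes were named, and of each wider list the called genes or otherwise the 3 with the highest mean. Vcan, Gnpnat1, Sulf2, Hs3st3b1 and Slc35b2 were named after their values were seen. The deposited coordinates are not GRCr8 (0 of the 10 starts match), so RefSeq GRCr8 served for names, neighbours and upstream sequence only.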

Additional observations from a re-analysis of the deposited data

How the results depend on the processing

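In model against control, the 1 called gene of the 10 became 0 with a pseudocount of 0.1, 0 with the replicate block, 0 with limma voom on recovered reads, 9 on the TPM scale, and 0 to 2 when 1 library was left out. It became 2 when control library 2 and model library 1 were both left out. In SYD against model the count of 0 became 1 without model library 2 (range 0 to 1). In SYD against control the count of 0 became 3 on the TPM scale, 2 without control library 2 (range 0 to 2) and 2 without control library 2 and SYD library 3. The pairs of libraries left out were chosen after seeing the data. Over the 8 pathway lists, the 6 calls in model against control became 56 on the TPM scale and 15 with voom (23.6% of all tested genes, against 14.7% before), and 2 to 15 with 1 library left out. The 6 calls in SYD against model (4.15% of all tested genes) became 2 without a filter (1.92%) and 2 on the TPM scale (3.81%). They became 10 in a fit of all 9 libraries (8.78%), 10 with voom (7.76%) and 0 to 22 with 1 library left out. The 7 calls in SYD against control became 12 on the TPM scale, 3 in a fit of all 9 libraries (12.9% of all tested genes, against 16.5% before) and 11 with voom (24.4%), and 6 to 8 with 1 library left out (without SYD library 3, B3galt6, Chst12 and Slc35d2 were not called and Sulf2 and Vcan were). With a pseudocount of 0.1 the Chst11 to Chst3 difference was -3.42 for model against control and 1.48 for SYD against model. Idua turned to -0.26 in SYD against control on the TPM scale. The other causes were not tested. The TPM scale lets the mitochondrial reads set the total. Of 510 refits of a single gene of the 10, 447 kept direction and side of the threshold, 18 became called, 7 lost the call, all of them Chst11, and 38 changed sign without a call before or after.

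Leaving out 1 library leaves 2 in its group, and the spread then rests on 5 libraries. The labels do not state whether the replicate numbers pair the samples, and low correlations cannot exclude it. Same-numbered libraries deviated from their group means with correlations of -0.27 to -0.08 (model with control), -0.07 to 0.19 (SYD with model) and -0.19 to 0.07 (SYD with control). With the replicate block the calls over the 8 lists were 4, 4 and 7 in the 3 comparisons, where 12%, 3.78% and 16.3% of all tested genes were called. Read counts behind the genes differed between libraries: in model library 1 the 10 genes held 0 to 247 reads each, in model library 3 0 to 461, and in control library 1 385 to 4421. The part of depth in the zeros was not tested.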

Other observations

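Pxylp1, the phosphatase that removes the phosphate from the linkage xylose, and Chpf, a chain polymerizing factor, differed 4.27-fold and 4.71-fold between control libraries 1 and 2, with 18.8, 4.39 and 10.6 FPKM for Pxylp1 and 29.0, 6.16 and 15.8 FPKM for Chpf. In model they were at 10.97, 8.85 and 7.44 FPKM and 0, 14.9 and 4.07 FPKM, and in SYD at 6.65, 11.2 and 4.74 FPKM and 14.4, 24.8 and 9.41 FPKM. Neither was called in a comparison (limma). Bgn, the small proteoglycan biglycan, was at 355, 73.9 and 268 FPKM in control, 180, 391 and 953 FPKM in model, and 395, 409 and 338 FPKM in SYD. Its groups overlapped for model, and in SYD library 3 it was below control library 1. Dsel, a dermatan sulfate epimerase, was at 0.765, 0.204 and 0.608 FPKM in control and 1.42, 1.96 and 1.57 FPKM in SYD, without overlap (log2 fold change 0.81, Benjamini-Hochberg adjusted p = 0.0427, limma), under the fold limit for a call. Dsel, Pxylp1 and Bgn were named after their values were seen.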
